A study of Homo sapiens with 8 samples.

Results

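The genes described here are the MYB transcription factors (MYB, MYBL1, MYBL2), the MYC factors (MYC, MYCL, MYCN), their partner MAX and the MAX-binding repressors MXD1 and MXD4. They were found as the probe sets whose annotation names 1 of these genes and no other. By this rule 27 probe sets measured 8 of the 9 genes, among 19775 genes and 54675 probe sets in all. The 3 probe sets of MXD4 each name a further gene, so MXD4 has no value. Each gene is given by its probe set with the highest mean over the arrays, and the other probe sets follow further on. The set was chosen by its known network with the sphere differences of MYB and MYC in view. Those 2 differences are thus the values that selected it and are given as descriptions, with no test. The other members were also listed with earlier results of these data known. These took in the fall of cell cycle genes in spheres, so the tests of MYBL2 and the others are not independent of that choice.

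RNA was hybridised to 8 Affymetrix arrays, 2 for each of 4 groups of human colorectal adenocarcinoma cells. SW480 cells of a stable line labelled as expressing Snail, a repressor of epithelial genes, were set against SW480 cells of a stable line with the empty vector. Both lines grew in DMEM with 10% fetal bovine serum, and whether each was a clone or a pool is not given in the sources used here. HT29 cells labelled as first spheres grew without serum, in DMEM-F12 to which N2 supplement and the growth factors EGF and bFGF had been added, at 10 ng/ml each. They were set against parental HT29 cells in DMEM with 10% serum, so the medium, the growth factors and the sphere form changed together and cannot be told apart. Nothing in the labels ties the arrays to separate cultures, so the p-values measure the spread between arrays, which may be technical.

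MYC binds DNA as a dimer with MAX at E-boxes and drives genes of ribosome production, metabolism and cell growth. MXD1 and its relatives compete for MAX, and their dimers recruit corepressors to the same sites. MYB is a factor of progenitor cells, including those of the colonic crypt, where it is needed for proliferation. MYBL2 is itself an E2F target that joins the MuvB complex in dividing cells, and with FOXM1 it activates the genes of G2 and mitosis; without it, MuvB forms the repressive DREAM complex with RBL proteins and E2F4.

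All values are log2 expression values, and the array medians lay between 5.499 and 5.612. Arrays of 1 group correlated at 0.9907 to 0.9954 over genes; the parental HT29 pair was least alike, with 200 genes at least 2-fold apart against 10 to 19 in the other pairs. SNAI1, the gene of Snail, averaged 6.35 ± 0.04 on the arrays labelled Snail and 6.35 ± 0.01 on vector arrays (SD, n = 2), a difference of 0.003 ± 0.146 (SE; limma, adjusted p = 0.99). The only SNAI1 probe set thus does not bear out the label. Whether it reads the introduced sequence is not given in the sources used here, so it may not check the label, and every direction given for those arrays rests on the label. Of 11 colon epithelial markers checked, EPCAM, KRT8, KRT18 and KRT19 were well above the medians in all groups. KRT20 averaged 12.96 in spheres and 11.37 in parental HT29 cells, against 4.18 on Snail-labelled and 4.42 on vector arrays. CDH17 averaged 9.82 in spheres but 5.08 in parental cells, 4.65 on Snail-labelled and 4.62 on vector arrays. VIL1 averaged 8.83, 9.61, 5.95 and 7 in the same order of groups. Of 10 measured markers of blood, vessel, stromal and liver cells, 4 or 5 lay below the median of each array. Their summed linear level was 738 to 833 in spheres and 706 to 774 in parental cells, 787 to 815 on Snail-labelled and 726 to 764 on vector arrays. The spike-in control BioC averaged 10.01 in spheres and 8.37 in parental cells, and the 18S rRNA control 6.75 on Snail-labelled and 5.35 on vector arrays; the part of either in the results was not tested.

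MYB had the largest sphere difference among the 8 measured members. It measured 5.69 and 5.44 in the 2 sphere arrays, against 9.04 and 9.59 in parental HT29 cells. The sphere difference was -3.76 ± 0.19 (SE), or 13.5-fold lower. It was larger in size than 99.87% of all gene differences in that comparison. That rank belongs to a value that selected the set, so it is a description and no evidence. MYB thus lay near the array medians in spheres and far above them in parental cells. In SW480 it measured 5.99 and 6.28 on the arrays labelled Snail, against 5.44 and 5.54 on vector arrays, a rise of 0.65 ± 0.19 (adjusted p = 0.044). The order was parental HT29, then Snail-labelled SW480, with spheres and vector cells overlapping at the bottom. In bulk RNA, fewer cells expressing a gene and less RNA per cell cannot be told apart.

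MYBL1, best known for its role in male meiosis, measured 3.55 and 4.43 in spheres, against 5.71 and 5.84 in parental cells. It fell by 1.78 on the log2 scale (SE 0.24, adjusted p = 0.00024), and both sphere values lay below every array median. On the arrays labelled Snail it measured 7.96 and 8.15, against 8.47 and 8.63 on vector arrays. That difference, -0.49 ± 0.24, did not pass (adjusted p = 0.20; 95% interval -1.02 to 0.03). By group means the order was vector, Snail-labelled, parental, spheres.

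MYBL2, the member tied to the cell cycle, measured 7.74 and 7.75 in spheres, against 9.88 and 9.18 in parental cells. It fell by 1.79 ± 0.19 on the log2 scale (adjusted p = 7.1e-05). On the arrays labelled Snail it measured 9.23 and 9.24, against 9.59 and 9.54 on vector arrays, a difference of -0.33 ± 0.19 (adjusted p = 0.30; 95% interval -0.76 to 0.10). The spheres stood below all other arrays, and the range of the parental pair held both SW480 groups.

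Promoters are shown for MYB and MYBL2, which were lower in spheres, and for MXD1, which moved the other way, but not for every member. Each runs from 250 bases before to 50 after the RefSeq start (GRCh38.p14), on the plus strand. Capitals mark matches on either strand to the E-box of MYC and MAX (CACGTG), the E2F letters GGCGGGA or GGCGCGA, or the MYB letters TAACNG or CAACNG.
MYB promoter, chr6:135181058-135181357: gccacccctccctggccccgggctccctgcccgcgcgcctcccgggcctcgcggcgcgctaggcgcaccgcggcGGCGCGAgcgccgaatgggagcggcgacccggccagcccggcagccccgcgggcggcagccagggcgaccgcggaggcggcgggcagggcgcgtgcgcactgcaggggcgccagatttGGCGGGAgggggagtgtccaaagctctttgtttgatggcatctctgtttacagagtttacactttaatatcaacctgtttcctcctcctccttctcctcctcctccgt
MYBL2 promoter, chr20:43666864-43667163: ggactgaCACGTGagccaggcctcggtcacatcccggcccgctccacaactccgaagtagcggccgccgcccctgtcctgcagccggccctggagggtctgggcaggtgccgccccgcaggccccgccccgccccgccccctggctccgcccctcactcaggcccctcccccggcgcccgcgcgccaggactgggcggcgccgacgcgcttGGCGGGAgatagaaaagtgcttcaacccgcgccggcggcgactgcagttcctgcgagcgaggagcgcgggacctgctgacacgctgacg
MXD1 promoter, chr2:69914859-69915158: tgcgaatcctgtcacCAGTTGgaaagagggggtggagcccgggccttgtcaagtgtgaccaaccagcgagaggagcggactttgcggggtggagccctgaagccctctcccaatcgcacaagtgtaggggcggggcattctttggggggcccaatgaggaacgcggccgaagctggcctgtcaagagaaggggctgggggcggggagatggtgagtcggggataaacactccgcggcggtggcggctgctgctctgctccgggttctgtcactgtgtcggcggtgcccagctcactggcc
The MYB window held E2F letters at -176 and -58 from the start, and neither an E-box nor MYB letters. The MYBL2 window held an E-box at -243 and E2F letters at -39, and the MXD1 window held only MYB letters, on the reverse strand at -235. Among members not shown, MYCL, also lower in spheres, had no such match in its window. MYCN, which did not pass in spheres, had 2 E2F matches and 1 match to the MYB letters. For MAX, 1 window had 1 E2F match and the other had none. Over 35116 promoters of the same length, an E-box occurred in 7.3%, the E2F letters in 19.1% and the MYB letters in 46.2%, so a match is a description and not a site.

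**Figure D1:**
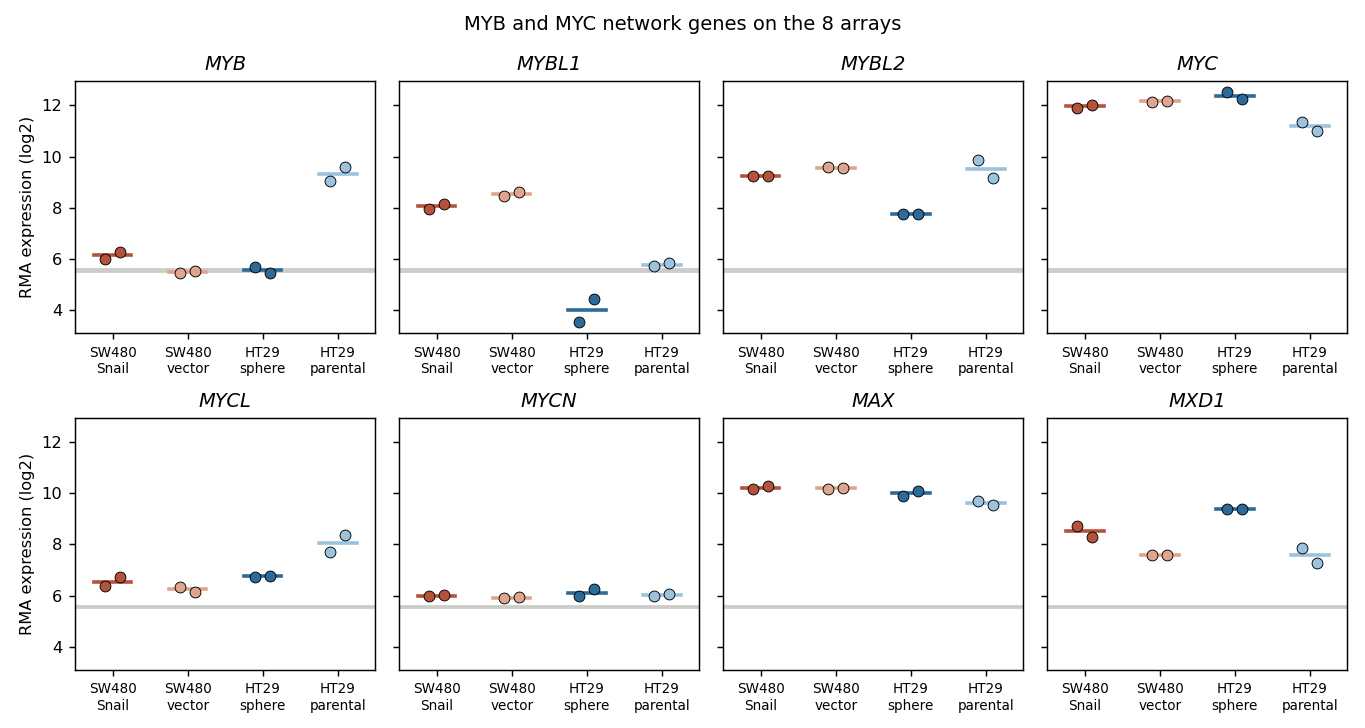
Log2 expression of each of the 8 measured genes on every array (dots), with the mean of each group (bar) and the range of the array medians (grey band), for SW480 arrays labelled Snail, SW480 vector, HT29 spheres and HT29 parental cells. MYB stands alone at 9.04 and 9.59 in parental HT29 cells, MYC has its highest values in spheres, at 12.51 and 12.26, and MYCN stays between 5.89 and 6.24 on all arrays.

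MYC ran opposite to MYB in the HT29 cells. It measured 12.51 and 12.26 in spheres, against 11.36 and 11.01 in parental cells. The difference was 1.198 ± 0.153 (SE), or 2.29-fold higher, again a description of a value that selected the set. In SW480 cells MYC measured 11.90 and 12.02 on the arrays labelled Snail, against 12.12 and 12.19 on vector arrays. That difference of -0.20 ± 0.15 did not pass (adjusted p = 0.45; 95% interval -0.53 to 0.14). By group means the order was spheres, vector, Snail-labelled, parental.

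MYCL, the MYC paralogue first found in lung cancer, measured 6.74 and 6.78 in spheres, against 7.71 and 8.38 in parental cells. It fell by 1.29 ± 0.21 on the log2 scale (adjusted p = 0.00091), so that MYC was higher and MYCL lower in the same sphere arrays. In SW480 cells MYCL measured 6.38 and 6.72 on the arrays labelled Snail, against 6.35 and 6.15 on vector arrays (0.29 ± 0.21, adjusted p = 0.40). Parental cells were highest and vector cells lowest. MYCN, the paralogue of neural tissue and neuroblastoma, measured 5.996 and 6.242 in spheres, against 5.99 and 6.06 in parental cells (0.10 ± 0.13, adjusted p = 0.63). It measured 5.97 and 6.01 on Snail-labelled arrays, against 5.89 and 5.95 on vector arrays (0.07 ± 0.13, adjusted p = 0.78). The 95% intervals, -0.19 to 0.38 and -0.22 to 0.36, bound the differences of this probe set to well under 1 log2 unit. Its values lay close to the array medians and detection above background was not measured, so they may not bound a change in MYCN RNA.

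MAX, the shared dimer partner, measured 9.91 and 10.10 in spheres, against 9.71 and 9.56 in parental cells. Its difference of 0.37 ± 0.13 missed the threshold (limma, adjusted p = 0.053, 95% interval 0.08 to 0.66). On Snail-labelled arrays it measured 10.17 and 10.27, against 10.19 and 10.22 on vector arrays (0.02 ± 0.13, adjusted p = 0.95; 95% interval -0.27 to 0.31). The SW480 groups overlapped at the top, spheres came next and parental cells last.

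MXD1, the repressor of the set, rose in both comparisons by the probe set used. It measured 9.40 and 9.37 in spheres, against 7.88 and 7.26 in parental cells, a rise of 1.81 ± 0.20 (3.51-fold, adjusted p = 7.8e-05). On the arrays labelled Snail it measured 8.71 and 8.31, against 7.60 and 7.59 on vector arrays, a rise of 0.91 ± 0.20 (1.88-fold, adjusted p = 0.012). Spheres were highest, Snail-labelled arrays next, and vector and parental arrays overlapped at the bottom, so MYC and its antagonist MXD1 were both highest in spheres.

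In spheres, 4 of the 6 members other than MYB and MYC passed the threshold of an adjusted p under 0.05 (1 rise, 3 falls), where 31.4% of all genes passed. On the arrays labelled Snail, 2 of 8 members passed, MYB and MXD1, both as rises, where 16.2% of all genes passed and 8.91% as rises. The Snail calls rest on few arrays. Over all genes, 3213 were called, and 1527 without Snail array 1, 1447 without Snail array 2, 1472 without vector array 1 and 1602 without vector array 2. Leaving out any of these 4 ended the MYB call (differences of 0.50 to 0.79), and leaving out Snail array 1, vector array 1 or vector array 2 ended that of MXD1 (0.71 to 0.92). Without sphere array 1 or 2 the MYB adjusted p was 0.06 as well.

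The size of the sphere change was set against that of the Snail-labelled change in 1 test of their difference. Of the 6 members other than MYB and MYC, 4 passed, where 27.5% of all genes did. The change in spheres was lower for MYBL1 (-1.29 ± 0.33, adjusted p = 0.015), MYBL2 (-1.46 ± 0.28, adjusted p = 0.003) and MYCL (-1.58 ± 0.30, adjusted p = 0.0028), and higher for MXD1 (0.90 ± 0.28, adjusted p = 0.039). MAX (0.35 ± 0.18, adjusted p = 0.19) and MYCN (0.03 ± 0.18, adjusted p = 0.94) did not pass. As descriptions, the differences of the changes were -4.40 for MYB and 1.39 for MYC. The MXD1 call was lost in 6 of 15 alternative settings, over which its value ran from 0.59 to 1.21, and that of MYBL1 in 4, 3 of which left out an array.

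**Figure D2:**
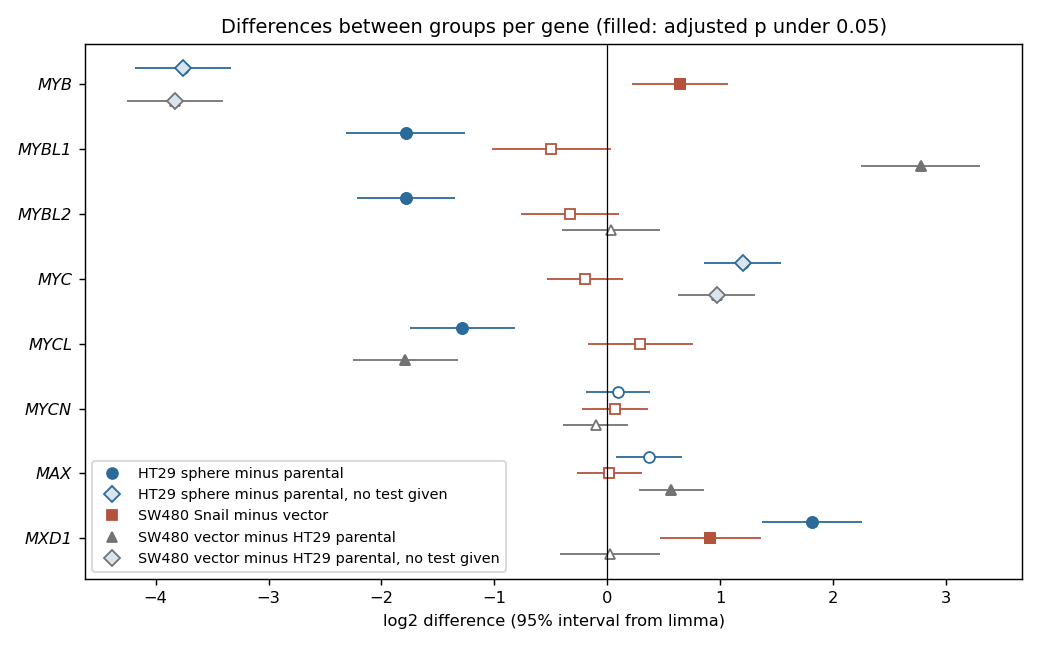
Log2 difference of each gene with its 95% interval in the comparisons of Snail-labelled with vector arrays, vector with parental HT29 arrays and spheres with parental arrays. Filled points passed an adjusted p of 0.05, and light diamonds mark MYB and MYC in the comparisons with parental cells, given with no test. The intervals of the diamonds are not to be read as tests, since these values selected the set or share its parental arrays. MYB lies at -3.76 and -3.83 in both comparisons against parental HT29 cells, which share the parental arrays, and at 0.65 between the SW480 groups.

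Between vector SW480 and parental HT29 cells, 3 of the 6 members other than MYB and MYC passed, near the 46.1% of all genes that did. As descriptions, since they share the parental arrays with the differences that selected the set, MYB was 14.2-fold lower in vector cells (-3.83 ± 0.19) and MYC 1.96-fold higher (0.97 ± 0.15). MYCL was 3.45-fold lower (-1.79 ± 0.21, adjusted p = 5e-05). MYBL1 was 6.85-fold higher (2.78 ± 0.24, adjusted p = 4.7e-06) and MAX 1.48-fold higher (0.57 ± 0.13, adjusted p = 0.0044). The MYBL1 probe set used has the highest mean through its SW480 values, so that choice favours a higher value in vector cells. The other 2 MYBL1 probe sets differed by 0.04 and -0.21 and did not pass. The mean of the 3 probe sets gave 0.87. MYBL2 (0.04 ± 0.19), MYCN (-0.10 ± 0.13) and MXD1 (0.02 ± 0.20) did not pass. This comparison shares its parental arrays with the sphere comparison, and in it the cell line and the vector cannot be told apart. MYB, MYCL and MYC stood to the same side of parental HT29 cells in spheres and in vector cells. MYBL1 stood to opposite sides by the probe set used, 1.78 lower in the first and 2.78 higher in the second on the log2 scale.

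The other probe sets of a gene read other stretches of its transcripts, so their agreement was examined, with p-values adjusted over 54613 probe sets. All 5 MAX probe sets were higher in spheres: the brightest by 0.37 (adjusted p = 0.081), and the other 4 by 0.76 to 1.11 with adjusted p at most 0.0035, where 23.2% of probe sets passed. On Snail-labelled arrays 1 of the 5 passed, the dimmest (0.69, adjusted p = 0.012), and the other 4 did not, where 11.9% of probe sets passed. All 3 MXD1 probe sets rose in spheres, by 1.81, 0.75 and 1.90, but on Snail-labelled arrays only the brightest passed (0.91), the others differing by -0.005 and 0.33. Between vector and parental cells the MXD1 probe sets disagreed in direction, at 0.02, -1.06 (adjusted p = 0.00091) and 0.99 (adjusted p = 0.0017).

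For MYB, MYBL1 and MYCL the sphere difference was seen in the probe set with the highest mean and not in the others. The remaining MYB probe set, at 3.46 to 4.11 and below every array median, differed by -0.28 in spheres (adjusted p = 0.27). The other 2 MYBL1 probe sets differed by -0.07 and 0.31, and the other MYCL probe set by -0.17, none of which passed. The MYBL1 probe set used has the highest mean through the SW480 arrays: the first of the others averaged 5.76 in spheres and 5.84 in parental cells, against 3.99 and 5.77 for the one used, so the sphere fall of MYBL1 rests on a choice made through SW480. None of the 10 MYCN probe sets passed in the sphere, the Snail-labelled or the line comparison by limma, and 1 in each had an unadjusted p under 0.05. MYBL2 and MYC have 1 probe set each, so no such check exists for them.

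**Figure D3:**
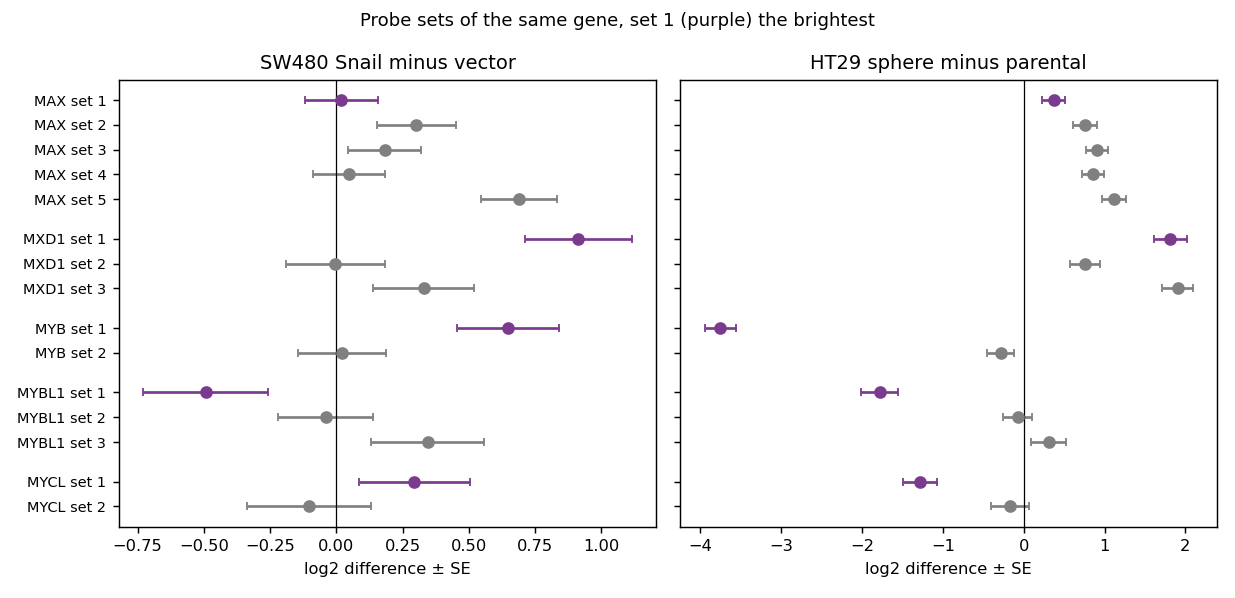
Log2 difference ± SE of every probe set of MAX, MXD1, MYB, MYBL1 and MYCL, with set 1 (purple) the brightest, for Snail-labelled minus vector arrays (left) and spheres minus parental cells (right). In spheres the 5 MAX sets lie between 0.37 and 1.11 and the 3 MXD1 sets between 0.75 and 1.90, while the other MYB, MYBL1 and MYCL sets lie between -0.28 and 0.31.

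Cell cycle gene lists tied to MYBL2, E2F and the MuvB complex mostly fell in spheres. Whether MYBL2 had a part in these falls was not tested. All 15 G2 and mitosis genes driven by MYBL2 and FOXM1 fell (median -1.46, against 0.04 over all genes and 19.0% of genes called lower). They included AURKB, a mitotic kinase (-2.50 ± 0.17), TOP2A, which untangles DNA (-2.24 ± 0.13), and CENPF, a kinetochore protein (-2.12 ± 0.18), with adjusted p at most 1.4e-05. Of 18 measured G1 and S phase genes driven by E2F, 17 fell (median -1.78), among them E2F8 (-2.87 ± 0.18), TYMS, which makes thymidylate (-2.63 ± 0.17), and CDT1, which licenses replication origins (-1.89 ± 0.13), with adjusted p at most 3.3e-06; E2F3 alone did not pass (-0.06). Of the 13 genes of the DREAM and MuvB complex and FOXM1, 9 fell and 2 rose (median -0.79). FOXM1 fell by 1.99 ± 0.18, the histone-binding subunit RBBP4 by 1.64 ± 0.13 and the E2F partner TFDP1 by 1.40 ± 0.12 on the log2 scale (adjusted p at most 2.3e-05). With the mean of probe sets AURKB was at -1.58, RBBP4 at -0.72 and TFDP1 at -0.84. LIN37 (0.63) and E2F4 (0.48) were the 2 that rose, named after their values were seen. The fall of cell cycle genes in spheres was known when these lists were drawn up, so these counts are no independent evidence of it.

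MYC targets divided in spheres. Of 29 measured growth genes that MYC activates, 6 rose, 8 fell and 15 did not pass (median 0.12), where 12.4% of all genes rose and 19.0% fell. The glycolytic enzymes HK2 (1.49 ± 0.13) and LDHA (1.06 ± 0.12) and the nucleolar protein NOP2 (1.07 ± 0.13) led the rises, with adjusted p at most 0.00016. The falls were named after their values were seen and took in CDK4 (-0.70), the purine enzyme IMPDH2 (-0.90), the serine enzyme SHMT2 (-0.95) and the nucleolar protein FBL (-0.74). The balance depended on single arrays: without parental array 1 there were 11 rises, without sphere array 1 there were 5 falls, and without parental array 2 the median was -0.11. The HK2 rise was lost when its probe sets were averaged (0.30, adjusted p = 0.076). Of 8 genes that MYC represses, 3 rose and 2 fell (median -0.20). CDKN1A, the p21 inhibitor of cyclin-dependent kinases, rose by 2.49 ± 0.14 and NDRG1, a stress-induced growth suppressor, by 2.89 ± 0.35, while CDKN1B, the p27 inhibitor, fell by 1.42 ± 0.14 on the log2 scale (adjusted p at most 0.00014). NDRG1 varied widely in parental cells (9.64 ± 1.05, SD), and its difference ran from 2.15 to 3.63 with arrays left out in turn. CDKN1A and NDRG1, listed as repressed by MYC, and MYC itself were thus all higher in spheres.

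Of 16 measured regulators and cofactors of MYC, 7 fell and 2 rose in spheres (median -0.32), where 19.0% of all genes fell and 12.4% rose. The falls were led by CIP2A, which shields MYC from degradation (-2.44 ± 0.22), SKP2, a ubiquitin ligase subunit that turns MYC over (-2.19 ± 0.13), and RUVBL1, an ATPase cofactor (-1.55 ± 0.14), with adjusted p at most 2e-05. The rises, named after their values were seen, were KAT5 (0.67), a histone acetyltransferase, and PVT1 (0.51), the long noncoding RNA beside MYC. Of 7 further members of the MAX and MLX network, 2 rose and none fell (median -0.04): MXI1, a repressor related to MXD1 (1.00 ± 0.21, adjusted p = 0.0038), and MLX, the partner of MondoA (0.49 ± 0.13, adjusted p = 0.017). The MLX call was lost without sphere array 2 or parental array 2 (0.36 and 0.43) and with the mean of probe sets (0.25), and MXI1 was at 0.65 without parental array 1. The 2 targets of MondoA went apart, ARRDC4 rising by 1.68 ± 0.15 (adjusted p = 2.1e-05) and TXNIP falling by 1.29 ± 0.37 on the log2 scale (adjusted p = 0.021), a call lost without either sphere array at the same value (adjusted p = 0.099 and 0.088). TXNIP varied widely in parental cells (11.3 ± 1.1, SD), and its difference was -2.07 without parental array 1 and -0.51 without parental array 2.

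Of 9 MYB cofactors, 4 fell and 1 rose in spheres (median 0.04), where 19.0% of all genes fell and 12.4% rose. PSIP1, which ties the menin complex to chromatin (-2.62 ± 0.20), HIPK2, a kinase of MYB (-2.27 ± 0.18), and the methyltransferase KMT2A (-0.75 ± 0.16) had the lowest adjusted p, at most 0.0046. With the mean of their probe sets these shrank to -1.64, -0.74 and -0.36. The KMT2A call was lost without sphere array 1 (-0.59), where fewer of the 4 falls held. CEBPB, a factor that acts with MYB, was the 1 that rose (0.47). Its call was lost with each line fitted alone, without either sphere array and without parental array 2. Of 10 reported MYB targets, 3 fell and 2 rose (median 0.13). CCNB1 and CCNE1, which are among the falls, are also counted in the cell cycle lists above. GATA3 fell by 1.25 ± 0.14 and the cyclin CCNE1 by 0.96 ± 0.13 on the log2 scale, and the chaperone HSPA5 rose by 0.85 ± 0.14 (adjusted p at most 0.00095). With the mean of probe sets CCNE1 was at -0.30 and HSPA5 at 0.40. Among colon epithelial markers, 5 of 11 rose and 1 fell (median 0.09, against 0.04 over all genes). The rises were led by the cadherin CDH17 (4.74 ± 0.15), KRT20 (1.59 ± 0.20) and KRT19 (0.64 ± 0.12). The KRT19 call was lost with the mean of its probe sets (0.28, limma, adjusted p = 0.19). VIL1 went the other way, at 8.83 in spheres against 9.61 in parental cells. Of the 10 markers of other cells, PECAM1 (0.57) and CD3E (0.39) rose, both calls lost without sphere array 1; the part of either list in the results above was not tested.

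**Figure D4:**
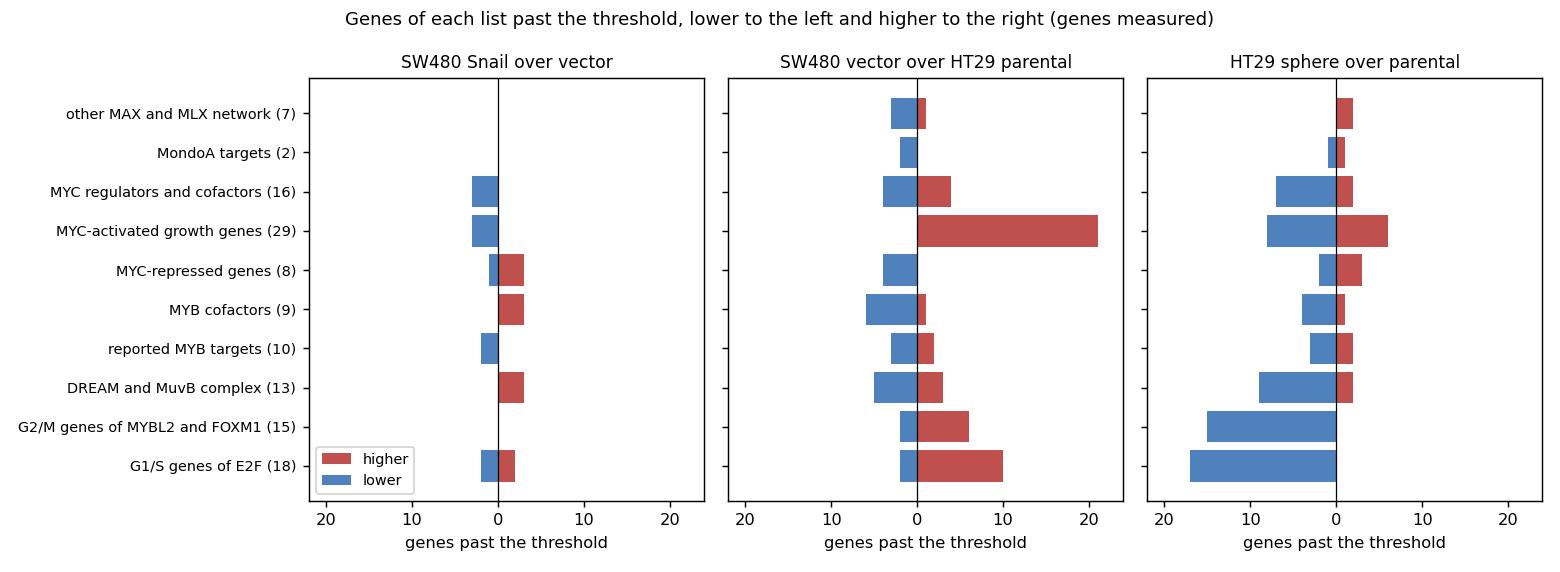
Number of measured genes of each list that were called lower (left of 0) or higher (right of 0) in the comparisons of Snail-labelled with vector arrays, vector with parental HT29 arrays and spheres with parental arrays. In spheres 15 G2 and mitosis genes and 17 G1 and S phase genes were lower and 0 were higher, while between vector and parental cells 21 MYC-activated growth genes were higher and 0 were lower.

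On the arrays labelled Snail, where 16.2% of all genes passed, 8.91% as rises and 7.34% as falls, the lists held calls in both directions. None of the 15 G2 and mitosis genes passed by limma (median -0.01, against 0.007 over all genes), and 3 had an unadjusted p under 0.05. UBE2C, with the lowest, was at -0.54 and passed in 8 of 16 alternatives, and the list held 2 falls under quantile normalisation, without the dimmest 40% of genes, with each line fitted alone, with array weights, with the trend prior and without either parental array. The G1 and S phase genes held 2 rises, MCM6 (0.76 ± 0.16) and E2F3 (0.63 ± 0.14), and 2 falls, RRM2 (-0.58 ± 0.15) and TYMS (-0.61), the last named after its value was seen, of 18; without any 1 of the SW480 arrays 0 remained called. With the mean of probe sets MCM6 (0.48) and RRM2 (-0.32) did not pass. The DREAM and MuvB list held 3 rises of 13, RBL1 (1.14 ± 0.30), TFDP2 (0.74 ± 0.15) and DYRK1A (0.55 ± 0.13). With the mean of probe sets 1 rise was left, with RBL1 at 0.33 and DYRK1A at 0. The growth genes held 3 falls of 29 (median -0.10): SRM, which makes spermidine (-1.20 ± 0.22), HK2 (-0.46 ± 0.13) and CAD, which starts pyrimidine synthesis (-0.45 ± 0.12). With the mean of probe sets HK2 (-0.35) and CAD (-0.11) did not pass. MYC regulators and cofactors held 3 falls of 16: WDR5, which recruits MYC to chromatin (-1.09 ± 0.13), the acetyltransferase KAT2A (-0.75 ± 0.15) and ZBTB17, through which MYC represses (-0.50 ± 0.13). Without any 1 of the SW480 arrays the DREAM and MuvB list held at most 1 rise and the growth genes 1 fall, and without either parental array the growth genes held 5 falls; the MYC regulators held 1 fall without Snail array 1 or vector array 2.

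Among MYC-repressed genes 3 of 8 rose on Snail-labelled arrays and 1 fell: CDKN1A rose by 1.03 ± 0.14 and GADD45A, a stress gene, by 1.01 ± 0.17, while CDKN2B, the p15 inhibitor, fell by 1.46 ± 0.22 on the log2 scale (adjusted p at most 0.0031). CDKN1A thus rose in both comparisons, in all 16 alternatives of each. MXD1 also rose in both, but on Snail-labelled arrays in only 1 of its 3 probe sets, with the call lost in 4 of 16 alternatives. Of 9 MYB cofactors 3 rose, the acetyltransferases EP300 (0.60 ± 0.14) and CREBBP (0.58 ± 0.16) and HIPK2 (0.64 ± 0.18), with at most 1 rise left without any 1 of the SW480 arrays. With the mean of probe sets 0 rises were left (EP300 0.28, CREBBP 0.14, HIPK2 0.10). Of 10 MYB targets, HSPA5 (-1.02 ± 0.14) and GATA3 (-0.47 ± 0.14) fell, the second call lost with the mean of probe sets (-0.28). None of the 7 other MAX and MLX network genes or the 2 MondoA targets passed by limma, with 2 of each at an unadjusted p under 0.05; MNT was at 0.59 (0.99, past the threshold, without vector array 1, and 0.19 without vector array 2) and ARRDC4 at -0.42. The markers held 2 rises and 1 fall of 11 for colon epithelium (KRT8 0.57, KRT19 0.49, VIL1 -1.06) and 1 of each of 10 for other cells (ACTA2 0.73, PECAM1 -0.55). With the mean of probe sets KRT19 (0.41), ACTA2 (0.14) and PECAM1 (-0.11) did not pass. Of the 25 called list genes that the naming rule took on these arrays, 18 lost the call when some array was left out, and WDR5, SRM, CDKN1A, CDKN2B, GADD45A, HSPA5 and VIL1 kept it under every alternative, at -0.56, -0.64 and -0.50 for WDR5, HSPA5 and VIL1 with the mean of their probe sets.

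The growth genes of MYC were higher in vector SW480 than in parental HT29 cells: 21 of 29 passed as higher and none as lower (median 0.54, against 0.066 over all genes and 22.6% called higher). The genes named for this comparison were chosen after their values were seen. CCND2, a D cyclin, was higher by 5.36, SRM by 2.12, the nucleolar protein NOP16 by 1.49, CAD by 1.43 and ODC1, which makes putrescine, by 1.30 on the log2 scale. The number of such rises was 15 to 24 when arrays were left out in turn, and without parental array 2 there was 1 fall. MYC itself stood 0.97 higher in the same comparison. Of 16 measured MYC regulators and cofactors, 4 were higher and 4 lower (median 0.06), where 22.6% of all genes were called higher and 23.5% lower. FBXW7, the ubiquitin ligase subunit that targets MYC, was 1 of the 4 lower, by 1.39 (limma, adjusted p = 3.3e-05). It was picked after its value was seen, and the other called regulators are not named. Whether MYC, its regulators or its network had a part in the growth gene differences was not tested. Of the MAX and MLX network, MXI1 (-1.88), MNT (-1.08) and MLXIP (-0.96), which encodes MondoA, were lower in vector cells and MGA (0.52) was higher. The list medians were 0.39 for G2 and mitosis genes (6 higher, 2 lower) and 0.54 for G1 and S phase genes (10 higher, 2 lower), while MYBL2 differed by 0.04. Both medians depended on the parental pair: they were 0.62 and 0.76 without parental array 1 (10 and 12 higher), and 0.10 and 0.22 without parental array 2 (5 and 8 higher).

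The genes whose profiles were most like those of MYB, MYC and MYBL2 were found by the root mean square difference of centred log2 values over the 8 arrays, as a description of 4 groups that share their arrays. For MYB they were MEIS2, a homeobox factor (0.24, Pearson r = 0.992), the antisense transcript RNF157-AS1 (0.27, r = 0.997), ADAMTS6 (0.35, r = 0.978) and SLC38A11 (0.35, r = 0.976). MEIS2 averaged 6.91 in spheres and 10.20 in parental cells, 7.36 on Snail-labelled and 6.59 on vector arrays, the order of MYB. For MYC they were PPP2R2A, a phosphatase subunit (0.096, r = 0.987), ATP6V1C2 (0.11, r = 0.979), TIMM10B (0.12, r = 0.971) and TM2D2 (0.13, r = 0.962). For MYBL2 they were the histone methyltransferase NSD2 (0.097, r = 0.992), the kinetochore gene NUF2 (0.13, r = 0.987), RRM1, the large subunit of ribonucleotide reductase (0.14, r = 0.983), and the kinesin KIF22 (0.15, r = 0.984). NSD2 averaged 7.52 in spheres and 9.29 in parental cells, 9.04 on Snail-labelled and 9.34 on vector arrays.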

How the data were processed

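Every probe set has 1 deposited log2 value on each array, obtained by the authors through RMA (per the submitters' processing notes), whose version is not given in the sources used here. RMA normalises arrays to a common distribution, so changes in total RNA per cell are not seen, and detection above background was not measured. Probe sets were named through the platform annotation deposited in GEO: 62 were controls, 41091 named 1 gene, 1801 several and 11721 none, and 41037 matched RefSeq (GRCh38.p14), which changed 0 symbols. Each of 19775 genes was taken as its brightest probe set. Group means were fitted to all 8 arrays with limma 3.58.1 in R 4.3.3 (4 residual and 6.1 prior degrees of freedom), two-sided, with Benjamini-Hochberg adjustment over all genes and a threshold of 0.05; the fit was tested on simulated data. An exact permutation test of 2 against 2 arrays cannot go below 0.333 and was not used. The members and gene lists were chosen with earlier results of these data known. Of each list, up to 3 genes with the lowest adjusted p past the threshold were named per comparison (if none passed, the lowest, as a value), and for MYB, MYC and MYBL2 the 4 genes of most alike profile. Replicate numbers of different groups share only a number: the correlations of their deviations lay between -0.057 and 0.061. Promoter sequences are those of RefSeq and were found for 7 of the 9 members. Alternatives covered the probe set rule, normalisation, filtering, the variance model and leaving out each array. The number of arrays limits the precision.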

Additional observations from a re-analysis of the deposited data

How the results depend on the processing

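The sphere differences of MYBL1, MYBL2, MYCL and MXD1 kept their direction and side of the threshold in all 16 alternatives, though with the mean of a gene's probe sets they shrank to -0.52 for MYBL1 and -0.73 for MYCL. By the same mean the untested sphere difference of MYB was -2.02. MAX passed in spheres in 5 alternatives, among them the mean of probe sets (0.80, adjusted p = 0.00025) and quantile normalisation (0.44, adjusted p = 0.019). On Snail-labelled arrays the MYB call was lost in 8 of 16 alternatives and that of MXD1 in 4, in both cases also with the mean of probe sets (0.34 and 0.41). MYBL1 passed there in 3 alternatives, with each line fitted alone and without either sphere array. With arrays left out in turn, the number of genes called was 4251 to 5885 for spheres, 1447 to 4087 for Snail-labelled arrays, 7296 to 8871 for vector against parental cells and 3931 to 5785 for the difference of the changes. With the replicate number as a block these counts were 6081, 3065, 8970 and 5281, and no sample pairing stands behind the numbers. PECAM1 in spheres turned to -0.095 (adjusted p = 0.58) with the mean of probe sets. The G2 and mitosis genes kept 15 falls and the G1 and S phase genes 17 whichever array was left out, and 14 and 16 with the mean of probe sets. Arrays without a detection measure limit the reading of low values such as those of MYBL1 in spheres.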
